A study of Mus musculus with 2 samples.

Results

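Chemokine ligands and their receptors were followed through the liver cells of 2 droplet-sequencing libraries. The set was chosen by gene symbol: Ccl, Cxcl, Xcl or Cx3cl followed by a digit for ligands, and Ccr, Cxcr, Xcr, Cx3cr or Ackr followed by a digit for receptors. It took 67 of the 32285 features of the deposited matrix, 44 ligand features and 23 receptor features, which carried 61 different symbols.

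The study collected liver cells from male mice after 2 weeks on the diet that the labels call 40% HFCFD, high in fat, fructose and cholesterol. One sample came from a mouse line labelled Cebp KO, in which Cre under the albumin promoter removes a floxed Cebpa from hepatocytes. The other carried the label Cebp WT, and the sources used here do not give the age of either animal. Both livers were digested by perfusion, enriched on Percoll and loaded on 1 lane each of a 3′ droplet kit that counts unique molecular identifiers (UMIs), with up to 6000 cells as the target for a lane. With 1 sample per genotype there was no replicate. The joined matrix marks each barcode only with suffix 1 or suffix 2, and no label ties a suffix to a genotype. The 2 suffixes are therefore described as 2 libraries of unassigned genotype, without any test and without a knockout contrast.

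Chemokines are small secreted proteins that steer leukocytes by engaging G protein-coupled receptors on their surface. The ligands are grouped by the spacing of the first cysteines of the mature protein into C, CC, CXC and CX3C classes, and most receptors are named after the class they bind. In the liver, resident macrophages, endothelium, stellate cells and lymphocytes are all known sources, and the atypical receptors (Ackr) take up chemokines without the usual G protein signal.

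The part of each coding sequence that gives the class its name is shown for the 7 ligands whose level pointed to 1 cell lineage in both libraries (described further on). The stretches were taken from GENCODE M21 transcripts on GRCm38, run 5′ to 3′ on the coding strand, and carry the cysteine codons of the motif in capitals. Xcl1 has a single cysteine there, Ccl5, Ccl17 and Ccl24 have adjacent cysteine codons, and in Cxcl10, Cxcl12 and Cxcl13 another codon stands between them.
Xcl1, minus strand, exon 2, chr1:164932954-164932998: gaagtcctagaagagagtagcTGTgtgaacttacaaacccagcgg
Ccl5, minus strand, exons 1 and 2, chr11:83529221-83530386: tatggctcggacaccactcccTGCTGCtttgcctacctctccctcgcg
Ccl17, plus strand, exon 2, chr8:94811191-94811238: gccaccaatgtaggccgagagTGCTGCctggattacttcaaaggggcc
Ccl24, minus strand, exon 2, chr5:135572644-135572691: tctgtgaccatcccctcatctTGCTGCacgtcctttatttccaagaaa
Cxcl10, minus strand, exon 2, chr5:92348160-92348210: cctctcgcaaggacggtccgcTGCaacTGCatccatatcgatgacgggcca
Cxcl12, plus strand, exon 2, chr6:117171487-117171537: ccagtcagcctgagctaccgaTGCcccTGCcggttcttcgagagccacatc
Cxcl13, plus strand, exon 2, chr5:95958643-95958693: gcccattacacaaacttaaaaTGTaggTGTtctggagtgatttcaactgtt

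The libraries held 17313 barcodes with suffix 1 and 15003 with suffix 2, and 60048646 and 52355243 UMIs. After the filters, 11617 and 6088 cells remained, with median depths of 1424 and 2310 UMIs. Suffix 2 lost most droplets to the limit of 25% mitochondrial UMIs: its median mitochondrial share was 41.3%, against 4.07% with suffix 1. Of the kept cells, 34 barcode sequences occurred with both suffixes. Clusters were built without the chemokine genes and named from marker genes into 20 classes. The 19 classes with a marker list of their own carried UMIs of all their markers, some at very low levels. The same lists named the classes, so this is not an independent check. The T-like class that was neither naive nor effector was set apart within the T list. The Cebpa level of hepatocyte-like cells was 1.02 CPM (UMIs of a gene scaled to a common total) with suffix 1 and 99.3 CPM with suffix 2, and no genotype was assigned from it.

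Of the 67 features, 54 had at least 1 UMI in the kept cells and 13 had none. The ligands summed to 34349 UMIs with suffix 1 and 25511 with suffix 2, the receptors to 8267 and 7042. A member was described with values when it held at least 30 UMIs in each library, which 18 ligands and 14 receptors did. Levels are CPM over the summed UMIs of a class, with exact Poisson 95% intervals that cover counting error only. UMIs from the 3′ end are not scaled by length, so levels were compared across classes for a gene and not between genes.

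A gene was said to have a leading lineage when its highest class belonged to the same lineage in both libraries, held at least 20 UMIs, and reached at least 2 times the level of the highest class of any other lineage. Classes under 20 cells in a library (migratory DC-like, macrophage-like and basophil or mast-like cells in both, plasma-like cells with suffix 1) were outside this rule there, and some of them held higher levels, given below. Over the 7156 other genes that reached 20 UMIs in their highest class of both libraries, 21.2% had one. Among the chemokine members the count was 7 of 12 ligands (58.3%) and 9 of 12 receptors (75%). T and NK cells led for Ccl5, Xcl1, Cxcr6 and Cxcr3. Mononuclear phagocytes led for Ccl24, Cxcl13, Cxcl10 and Cx3cr1, dendritic cells for Ccl17, Xcr1 and Ccr9, and neutrophils for Cxcr2, Ccr1 and Cxcr4. B cells led for Cxcr5 and stellate cells for Cxcl12. The calls of Ccl17 and Cxcl10 were lost when the highest cell of each class was left out. That of Cxcr4 was lost with a mitochondrial limit of 10%, although its log2 ratios to the next lineage, 2.02 and 1.48, stayed past 2-fold. Of the 16 calls, 7 were kept when cells that carried markers of another lineage were left out, where fewer members held enough UMIs. Among the named classes, no member had hepatocytes, cholangiocytes, endothelium or erythroid cells as its leading lineage. Unnamed clusters, some of them led by the hepatocyte list, were outside the rule.

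**Figure D1:**
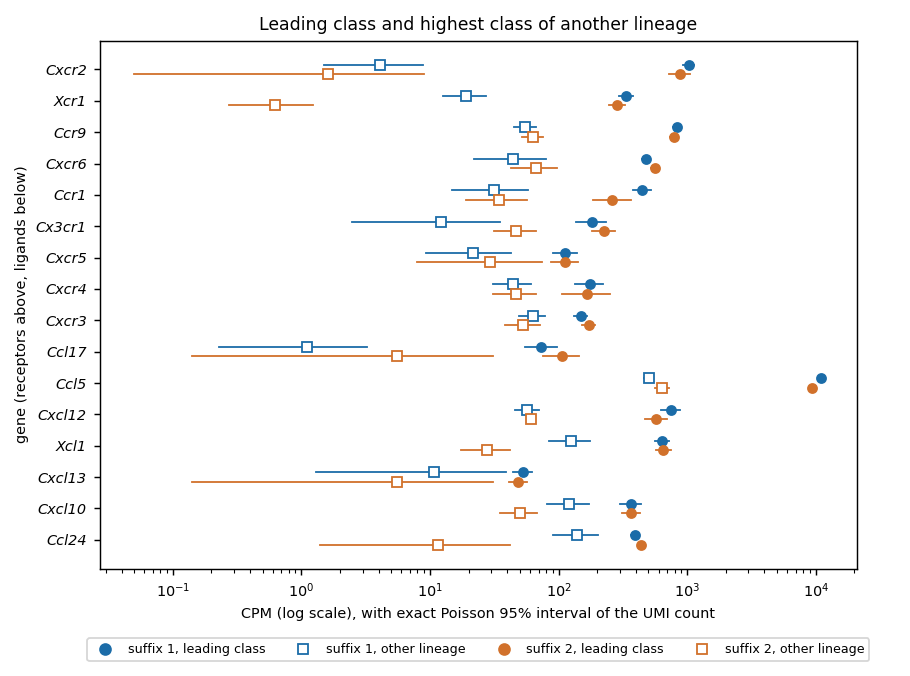
Level of the 16 members with a leading lineage, in CPM on a log axis, for the leading class (filled circles) and the highest class of another lineage (open squares), with suffix 1 in blue and suffix 2 in orange; lines are exact Poisson 95% intervals, the lowest of which is cut at the left. Ccl5 reached 10970 and 9361 CPM in NK or ILC1-like cells, and classes under 20 cells are not drawn.

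Ccl5, a CC ligand of Ccr1 that cytotoxic lymphocytes release, was the most abundant member by UMIs, with 20269 of the 34349 ligand UMIs of suffix 1 and 13909 of the 25511 of suffix 2. In NK or ILC1-like cells Ccl5 stood at 10970 CPM (10655–11292) with suffix 1 and 9361 CPM (9033–9698) with suffix 2. Naive T-like cells followed with 4940 and 5695 CPM, and effector T-like cells with 4076 and 2971 CPM. The order of these 3 classes was thus the same in both libraries, and the next lineage among classes of at least 20 cells stood at 502 CPM in plasmacytoid dendritic (pDC-like) cells of suffix 1 and 640 CPM in cDC2-like cells of suffix 2. In the cDC2-like class of suffix 2 1 cell held 81.7% of the 241 Ccl5 UMIs, and it also carried 19 T and NK markers. Smaller classes were higher. Migratory DC-like cells stood at 2760 and 3142 CPM Ccl5, with a UMI in 11 of 13 and 6 of 8 cells, and at 2036 and 2232 CPM without the highest cell. Basophil or mast-like cells stood at 1234 and 1845 CPM, and at 649 and 50.5 CPM without it.

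The effector T-like class was itself uneven for Ccl5. One of its clusters, of 100 and 32 cells, stood at 9899 and 9371 CPM, close to NK or ILC1-like cells, and its other clusters in each library between 1480 and 3900 CPM where tabulated. The leading genes of that cluster were mostly genes of NK and cytotoxic cells (among them Klra7, Gzma, Gzmb and Klre1), although all 8 T markers were raised in it, so its T-like name is uncertain.

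At a common depth of 1000 UMIs per cell, 97.8% of NK or ILC1-like cells with suffix 1 and 98.7% with suffix 2 had a Ccl5 UMI, against 36.9% and 50% of naive T-like cells. Erythroid-like cells, assumed not to express the gene, gave a background of 1.17% and 0.952% (median depths before thinning 3994 and 3420 UMIs, against 3968 and 3691 in NK or ILC1-like cells). The unthinned shares of NK or ILC1-like cells were 98.9% and 98.7%. Naive T-like cells were therefore mixed for Ccl5 in both libraries. Split after the values were seen by the co-receptor UMIs of each cell, those with Cd8a or Cd8b1 stood at 6429 and 7756 CPM Ccl5, and those with Cd4 only at 616 and 1502 CPM. The same order held in effector T-like cells, with 9734 and 7847 CPM beside Cd8a or Cd8b1 and 1636 and 1832 CPM beside Cd4 alone. Most effector T-like cells, 268 of 376 and 290 of 369, had neither co-receptor and stood at 2910 and 2619 CPM. Naive T-like cells with neither, 38 and 34 cells, stood at 3249 and 3287 CPM.

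Xcl1, the C-class ligand through which NK cells and CD8 T cells reach cross-presenting dendritic cells, had the same leading class. Its level in NK or ILC1-like cells was 638 CPM (564–720) with suffix 1 and 655 CPM (570–748) with suffix 2. With a mitochondrial limit of 50% and at resolution 2, the log2 ratio of the NK or ILC1-like class to cDC2-like cells of suffix 1 was 0.12 and 0.05, against 2.35, although the T and NK lineage kept its call for Xcl1. Effector T-like cells had 315 and 213 CPM (580 and 458 CPM in the cluster of uncertain name), and naive T-like cells 17.8 and 23.3 CPM. Within the NK or ILC1-like class, 2 clusters differed for Xcl1: the cluster of 56 and 50 cells stood at 916 and 854 CPM, the cluster of 36 and 25 cells at 72.6 and 200.04 CPM. Cxcr6 divided the same clusters, at 335 and 337 CPM in the first and 14.5 CPM (2 UMIs) and 0 in the second, whereas Ccl5 was higher in the second, at 15434 and 10452 CPM against 8778 and 8884 CPM. The clusters were formed without these genes.

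Ccl4 and Ccl3, inflammatory CC ligands, were spread over several lineages. Ccl4 stood at 160 and 311 CPM in NK or ILC1-like cells and at 216 and 43.8 CPM in neutrophil-like cells, so the highest class changed with the library. Ccl3 reached 148 CPM (55 UMIs) in neutrophil-like cells of suffix 1, where 1 cell held 45.5% of them, and 14.6 CPM (2 UMIs) with suffix 2. The highest values of both genes lay in basophil or mast-like cells, a class of 16 and 10 cells that was too small for the rule: 736 and 482 CPM for Ccl3, and 842 and 1509 CPM for Ccl4.

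Kupffer-like cells, the resident macrophages of the sinusoids, led for Ccl24 and Cxcl13. Ccl24, an eotaxin that acts through Ccr3, stood at 391 CPM (368–415) with suffix 1 and 436 CPM (413–459) with suffix 2. At 1000 UMIs per cell, 26.0% and 28.9% of Kupffer-like cells had a Ccl24 UMI, and no erythroid-like cell did. The unthinned shares were 73.4% and 72.4%, at median depths of 8469 and 6301 UMIs. Cxcl13, which draws B cells through Cxcr5, was lower in number of UMIs but held to the same class, at 52.9 CPM (44.6–62.3) and 48.5 CPM (41.3–56.6).

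The Kupffer-like class was made of different clusters in the 2 libraries: 334 of its 489 cells with suffix 2 came from a cluster (c3) that held 31 cells of suffix 1, and 211 of its 312 cells with suffix 1 from another (c4) that held 42 of suffix 2. Ccl24 was present in both, at 424 and 429 CPM in c3 and at 397 and 600.04 CPM in c4, with suffix 1 first. The third and shallowest cluster (c18) gave 241 and 310 CPM. Cxcl9 differed more: it was at 0 and 13.03 CPM in c3 and at 30.5 and 409.9 CPM in c4. Single cells weighed on Cxcl9 here: over the Kupffer-like class 1 cell with 8 dendritic markers held 47 of the 73 UMIs with suffix 1, and 1 cell with 14 T and NK markers held 69 of the 207 with suffix 2. Without them the class stood at 9.70 and 41.6 CPM.

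Cxcl16, the membrane-bound ligand of Cxcr6, had no leading lineage. Kupffer-like cells held 151 and 171 CPM, endothelial-like cells 125 and 113 CPM. Among the small classes, levels were higher, with 428 and 636 CPM in migratory DC-like cells (13 and 8 cells) and 381 and 288 CPM in macrophage-like cells (14 and 14 cells). Ccl6, a mouse CC ligand of Ccr1, was likewise shared among myeloid cells: 944 and 1029 CPM in neutrophil-like cells, 555 and 530 CPM in Kupffer-like cells, and 381 and 637 CPM in monocyte-like cells. The 16 and 10 basophil or mast-like cells had 1257 and 419 CPM Ccl6, the former the highest of any class with suffix 1. Ccl9, its neighbour on chromosome 11, was highest by the rule in monocyte-like cells, at 134 and 316 CPM, and reached 1471 and 1027 CPM in basophil or mast-like cells, where all 16 cells of suffix 1 and 9 of the 10 of suffix 2 had a UMI.

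Cxcl10 and Cxcl9, interferon-inducible ligands of Cxcr3, had their highest CPM in monocyte-like cells with suffix 2, and Cxcl10 also with suffix 1. Cxcl10 stood at 365 CPM (302–438) and 369 CPM (314–431), yet only 5 of 49 and 5 of 66 cells held any UMI. A single cell held 70.1% of the Cxcl10 UMIs with suffix 1 and 44.7% with suffix 2, and without it the level was 112 and 207 CPM. Cxcl9 showed the same concentration. In monocyte-like cells of suffix 2, 1 cell held 37 of the 52 Cxcl9 UMIs, and without it the class stood at 35.0 CPM, under endothelial-like cells (90.2 CPM without their highest cell). Its highest class with suffix 1, cDC2-like cells, was at 520 CPM (129 UMIs), of which 1 cell held 84.5%. That cell also carried 15 T and NK markers, and the class stood at 85.1 CPM without it. In hepatocyte-like cells of suffix 2, 1 droplet held 320 of the 543 Cxcl9 UMIs.

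In endothelial-like cells 32 of 132 cells with suffix 1 and 34 of 159 with suffix 2 had a Cxcl9 UMI, for levels of 88.2 and 99.5 CPM. At 1000 UMIs per cell the shares were 8.33% and 5.66%, against 0.778% and 0 in erythroid-like cells (median depths before thinning 5202 and 4441 UMIs, against 3994 and 3420). The highest cell of suffix 2, with 8 of the 74 UMIs, also carried 10 markers of mononuclear phagocytes. Cxcl9 and Cxcl10 were also counted in the same cells. Of the endothelial-like cells with Cxcl10, 45% and 62.5% also had Cxcl9, against 20.5% and 16.8% of those without. Of the Kupffer-like cells with Cxcl10, 0 of 16 with suffix 1 and 6 of 19 with suffix 2 had Cxcl9, against 5.74% and 4.26% of those without. Of the hepatocyte-like cells with Cxcl10 10 of 58 and 4 of 42 did, against 1.85% and 2.30% of those without, and of the monocyte-like cells 2 of 5 and 4 of 5, against 6.82% and 4.92%. Differences between classes were not tested. Over all named classes the shares were 18.4% and 25.2% of the cells with Cxcl10, against 2.17% and 2.92% of the other cells. These shares were not corrected for the depth of each cell, so its part in them was not tested.

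The promoter of Cxcl10 is shown for this reason, as the stretch from 228 to 79 bases before the annotated start (RefSeq, GRCm38.p6, minus strand, chr5:92348968-92349117). Capitals mark the letters GAAA, any 2 bases and GAAA again, a core of the interferon-stimulated response element, and matches to the NF-kappa B consensus, all searched on both strands. The last capital run holds 2 overlapping matches of the latter.
Cxcl10: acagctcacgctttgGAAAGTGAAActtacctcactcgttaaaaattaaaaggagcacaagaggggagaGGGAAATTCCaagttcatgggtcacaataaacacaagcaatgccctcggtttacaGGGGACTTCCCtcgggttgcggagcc

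Of 32851 promoters searched over the 250 bases before the start, 2.98% held the response element core and 7.25% the NF-kappa B consensus. Of the 54 promoters of chemokine members, 3 and 11 did. Cxcl9 had neither in this window. These matches describe letters only.

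**Figure D2:**
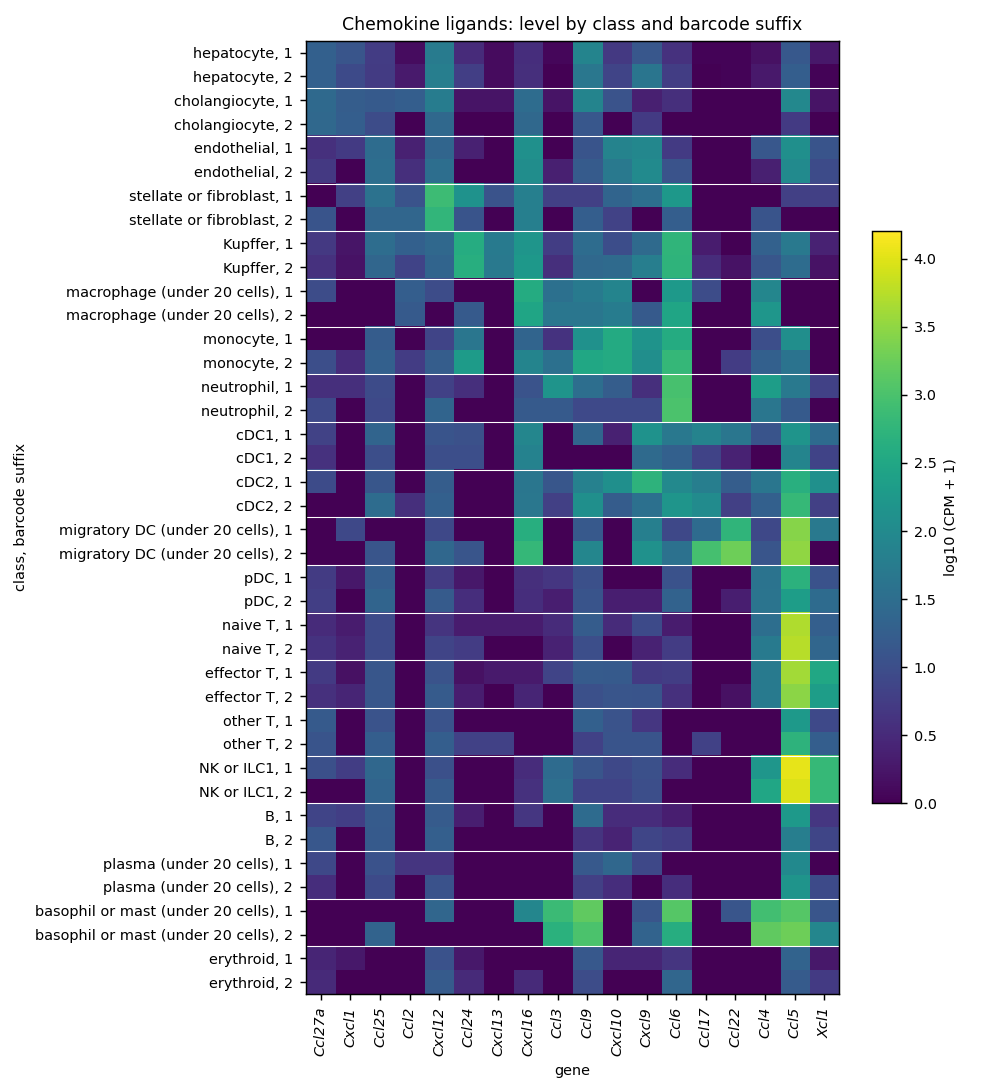
Level of the 18 described ligands (columns) in each class and library (rows, suffix 1 above suffix 2), as log10 of CPM + 1 by colour. Ccl5 and Xcl1 are brightest in NK or ILC1-like rows, Cxcl12 in stellate or fibroblast-like rows and Ccl24 in Kupffer-like rows.

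Cxcl12, the ligand of Cxcr4 and of the scavenger Ackr3, was the ligand of the stellate or fibroblast-like class. It stood at 751 CPM (632–886) with suffix 1 and 577 CPM (469–701) with suffix 2. Hepatocyte-like cells, at 55.0 and 61.4 CPM, were an order lower but supplied most of its UMIs, 1457 of 1930 and 781 of 1222. In hepatocyte-like droplets of at least 5000 UMIs, a split made after the values were seen, Cxcl12 was at 68.1 and 65.9 CPM, and 63.7% and 55.0% of droplets had a UMI. In erythroid-like cells it was at 10.6 and 14.8 CPM.

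Hepatocyte-like cells also held UMIs of Ccl9, Ccl27a and Cxcl1. For comparison, Ccl5 stood at 13.6 and 17.3 CPM in the same class, and the part of background in these levels was not tested. Ccl9 stood at 78.8 CPM (75.5–82.3) with suffix 1 and 46.0 CPM (42.4–49.9) with suffix 2, and in the droplets of at least 5000 UMIs at 81.6 and 44.9 CPM. The ratio between the libraries stayed under 2, so it is not among the pairs counted further on. Ccl27a, a ligand of Ccr10, was level between the libraries at 18.1 and 18.1 CPM, and cholangiocyte-like cells had 25.8 and 25.2 CPM (38 and 6 UMIs). Ccl27a has an overlapping gene on the other strand, Il11ra1, and 2 further features of the same name stood at 0 UMIs, so reads could have been split or left out. Cxcl1, a neutrophil attractant that binds Cxcr2, was at 11.9 and 7.71 CPM in hepatocyte-like cells and at 16.3 and 16.8 CPM (24 and 4 UMIs) in cholangiocyte-like cells.

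Ccl25, the ligand of Ccr9, was low in every class described: 30.3 and 23.7 CPM in Kupffer-like cells, 29.9 and 32.3 CPM in endothelial-like cells, 12.5 and 12.4 CPM in effector T-like cells and 4.68 and 4.40 CPM in hepatocyte-like cells. It overlaps Elavl1 on the other strand, and the sources used here do not state whether counting used strand. Ccl2, which mobilizes Ccr2-bearing monocytes, was low, at 18.5 CPM (50 UMIs) and 5.99 CPM (20 UMIs) in Kupffer-like cells. Cholangiocyte-like cells of suffix 1 had 17.0 CPM. With suffix 2 the highest class was stellate or fibroblast-like cells, at 23.1 CPM (4 UMIs).

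Ccl17 and Ccl22, ligands of Ccr4, were highest in dendritic classes. Ccl17 was highest in cDC1-like cells with suffix 1, at 73.7 CPM, and in cDC2-like cells with suffix 2, at 106 CPM. In the former, 51 of the 52 UMIs came from 1 cell. In migratory DC-like cells Ccl17 stood at 28.1 and 924 CPM, with 89.6% of the latter in 1 of 8 cells, which also carried 18 T and NK markers, and Ccl22 stood at 562 CPM (445–699) and 1847 CPM (1567–2163). Only 5 of the 13 and 3 of the 8 cells held Ccl22.

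Across the 12 ligands that reached 20 UMIs in their highest class of both libraries, the highest cell held a median of 13.3% of the UMIs with suffix 1 (2.64% to 98.1%) and 10.5% with suffix 2 (1.40% to 71.2%). Across the 12 receptors it held a median of 4.61%, at most 8.62%, and 7.19%, at most 13.04%. More than 25% in 1 cell was seen for 4 and 3 ligands and for 0 receptors in either library.

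**Figure D3:**
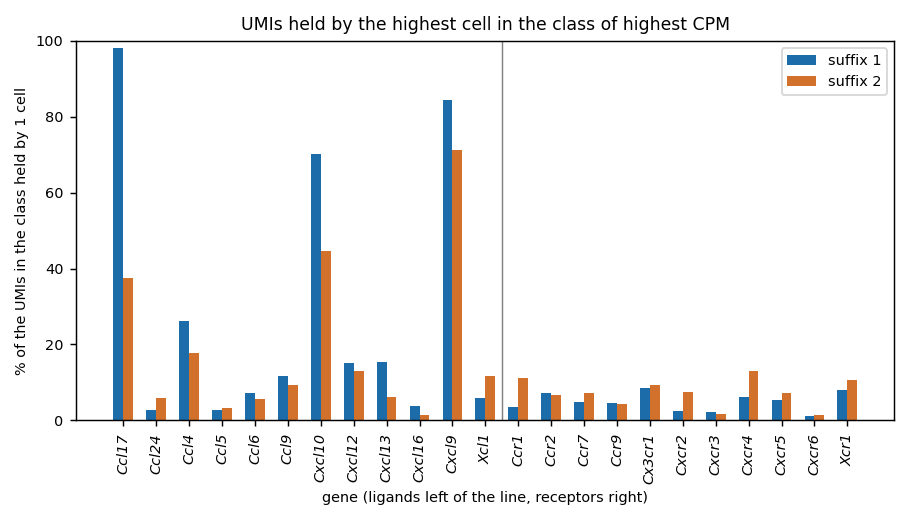
Share of a gene's UMIs, in its class of highest CPM, that the single highest cell held, in percent; bars are suffix 1 (blue) and suffix 2 (orange), ligands left of the line and receptors right. Ccl17, Cxcl9 and Cxcl10 exceed 25% in both libraries, and every receptor drawn lies under 14%.

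Among the receptors, Cxcr2, the receptor through which neutrophils answer Cxcl1 and Cxcl2, stood at 1033 CPM (932–1142) in neutrophil-like cells with suffix 1 and 875 CPM (726–1047) with suffix 2. The highest class of another lineage with at least 20 cells was at 4.08 and 1.60 CPM, the latter from 1 UMI. The 16 and 10 basophil or mast-like cells were higher, at 285 CPM Cxcr2 (24 UMIs in 9 cells) and 105 CPM (5 UMIs). At 1000 UMIs per cell 63.4% and 58.8% of neutrophil-like cells had a Cxcr2 UMI, and no erythroid-like cell did. The unthinned shares were 87.1% and 78.8% at median depths of 2493 and 1991 UMIs.

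Ccr1, a receptor of Ccl5, Ccl6 and Ccl9, was also highest in neutrophil-like cells, at 448 CPM (382–521) and 263 CPM (184–364), and monocyte-like cells had 31.2 and 34.4 CPM. Cxcr4, which holds neutrophils and B cells near Cxcl12, stood at 175 CPM (135–223) and 168 CPM (106–252) in neutrophil-like cells, with 44.3 and 46.5 CPM in B-like cells. The neutrophil class led for these 3 receptors in both libraries, for Cxcr4 on 65 and 23 UMIs. All 3 receptors lost their call with cells that carried markers of another lineage left out. They were then not among the 4 receptors that held enough UMIs, all of which were called. Cxcr4 also lost its call with classes named per cell and with a mitochondrial limit of 10%. At that limit its log2 ratios to the next lineage were 2.02 and 1.48, still past 2-fold.

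Cxcr6 was highest in effector T-like cells, at 476 CPM (446–508) with suffix 1 and 562 CPM (528–598) with suffix 2. The T-like class that was neither naive nor effector had 365 and 267 CPM Cxcr6, NK or ILC1-like cells 229.5 and 234 CPM, and naive T-like cells 50.1 and 112 CPM. Cxcr3, the receptor of Cxcl9 and Cxcl10, had the same leading class with 149 CPM (133–168) and 172 CPM (153–193). Its nearest other lineage, pDC-like cells, was at 62.8 and 53.3 CPM, which gave ratios of 2.38 and 3.23.

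Ccr7, the receptor that guides cells to lymphoid tissue, lay in other T-like cells than Cxcr6. Of the 616 T-like cells of suffix 1, 361 had a Cxcr6 UMI and 68 a Ccr7 UMI, and 13 had both. With suffix 2 the numbers were 368, 40 and 6 of 553. Ccr7 was thus found in 3.60% and 1.63% of the T-like cells with Cxcr6 and in 21.6% and 18.4% of those without. By class, Ccr7 stood at 117 and 107 CPM in naive T-like cells and at 83.7 and 97.8 CPM in B-like cells, ratios of 1.40 and 1.10, so no lineage led. The 13 and 8 migratory DC-like cells had 758 CPM (622–916) and 1271 CPM (1041–1538).

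Ccr6, the receptor of Ccl20, was highest in the T-like class that was neither naive nor effector, at 118 CPM (80.8–167) and 77.9 CPM (42.6–131), next to 49.2 and 40.1 CPM in B-like cells. Only 14 Ccr6 UMIs stood behind the T-like value of suffix 2. Cxcr5, which brings B cells to Cxcl13, was at 113 CPM (91.3–139) and 112 CPM (87.5–142) in B-like cells, and the next lineage, neutrophil-like cells, at 21.6 and 29.2 CPM.

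Among dendritic classes, Xcr1, the only receptor of Xcl1, stood at 337 CPM (296–383) and 286 CPM (247–330) in cDC1-like cells. Its next lineage was at 19.0 CPM in cholangiocyte-like cells of suffix 1, where 1 cell held 17 of the 28 UMIs and carried 8 dendritic markers, and at 0.629 CPM with suffix 2. Ccr9, the receptor of Ccl25, was at 835 CPM (783–890) and 791 CPM (730–856) in pDC-like cells. At 1000 UMIs 44.5% and 48.2% of pDC-like cells had a Ccr9 UMI, against none of the erythroid-like cells. The unthinned shares were 91.8% and 94.6%, at median depths of 7228 and 6616 UMIs. In cDC1-like cells, of the same lineage, Ccr9 stood at 68.0 and 65.1 CPM, and the highest class of another lineage, effector T-like cells, had 55.2 and 63.2 CPM.

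Ccr2, the receptor of inflammatory monocytes for Ccl2, was highest in monocyte-like cells, at 768 CPM (675–870) with suffix 1 and 442 CPM (382–509) with suffix 2. Dendritic classes came near it, with 299 and 280 CPM in cDC1-like and 230 and 335 CPM in cDC2-like cells, so the ratio with suffix 2 stayed under 2 and no lineage was called.

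Cx3cr1, the receptor of membrane-bound Cx3cl1, separated monocyte-like from Kupffer-like cells. It stood at 181 CPM (138–234) and 225 CPM (182–274) in the former and at 9.62 and 3.59 CPM in the latter. In the 14 and 14 macrophage-like cells, a class apart from Kupffer-like cells, Cx3cr1 was at 618 CPM (484–777) and 447 CPM (303–634). The gene overlaps several annotated genes on both strands. Its ligand Cx3cl1 had 4 and 6 UMIs in all.

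The atypical receptor Ackr4, a scavenger of Ccl25, Ccl19 and Ccl21, had 131 UMIs with suffix 1 and 197 with suffix 2, most of them outside the named classes. One unnamed cluster of 78 cells, all of suffix 1, held 87 Ackr4 UMIs, at 170.5 CPM (137–210.4). Another, of 142 cells, all of suffix 2, held 148, at 203 CPM (172–239).

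The hepatocyte marker list scored highest in both of these clusters, with 3 and 6 of its 8 markers raised. All 8 were raised in the hepatocyte-like class, so a hepatocyte identity of the clusters is uncertain. Clusters of the second round led by that list were left unnamed. Both clusters described here belong to 1 library each. Their share of cells with an Ackr4 UMI was 60.3% and 60.6%. Cxcl12 stood there at 131 and 159 CPM and Cxcl1 at 76.5 and 49.4 CPM. Among the named classes Ackr4 was highest in endothelial-like cells, at 14.2 CPM (10 UMIs) and 20.2 CPM (15 UMIs), and hepatocyte-like cells had 0.604 and 1.65 CPM. Ackr4 overlaps Acad11 on the other strand, and whether counting used strand is not stated in the sources used here.

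The other atypical receptors held fewer UMIs. Ackr2, a scavenger of inflammatory CC ligands, stood at 24.2 CPM (17 UMIs) and 21.5 CPM (16 UMIs) in endothelial-like cells, and Ackr1 at 32.7 CPM (23 UMIs) and 16.1 CPM (12 UMIs). Ackr3 had 17 UMIs with suffix 1, of which 11 were in 1 cDC2-like cell, and 7 with suffix 2.

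**Figure D4:**
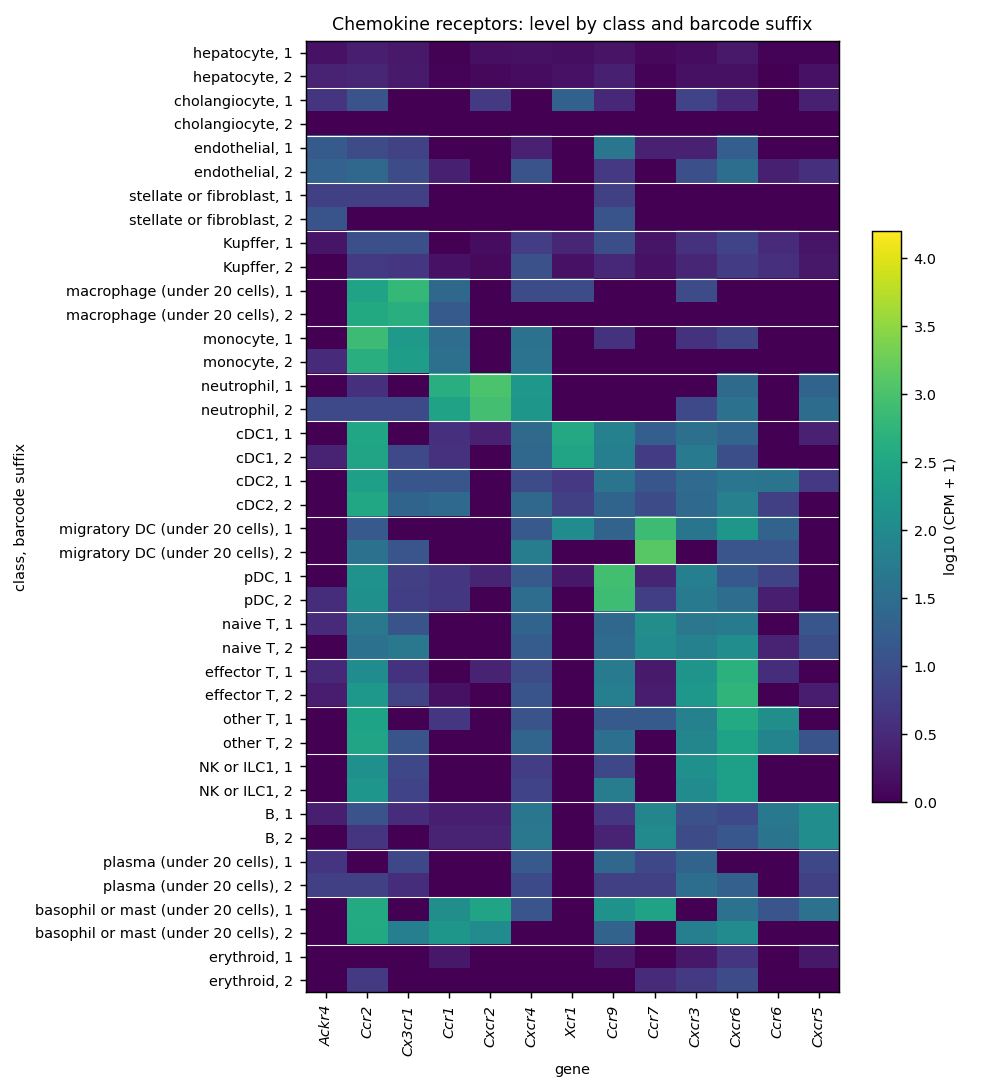
Level of 13 of the 14 described receptors (columns) in each class and library (rows, suffix 1 above suffix 2), as log10 of CPM + 1 by colour. Cxcr2 and Ccr1 are brightest in neutrophil-like rows, Ccr9 in pDC-like rows, Xcr1 in cDC1-like rows and Ccr7 in migratory DC-like rows; hepatocyte-like and erythroid-like rows are dark. Rows marked as under 20 cells belong to classes that small in at least 1 library.

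Receptor UMIs as a whole were rare in hepatocyte-like cells. They summed to 8.31 CPM (7.25–9.48) and 12.7 CPM (10.8–14.8) in hepatocyte-like cells, against 1713 and 1401 CPM in neutrophil-like cells and 1260 and 1223 CPM in pDC-like cells. Ligands summed to 210 and 221 CPM in hepatocyte-like cells. The unnamed clusters led by the hepatocyte list, which held most of the Ackr4 UMIs, are outside these sums. The 70 cholangiocyte-like cells with suffix 1 had 83 receptor UMIs over 10 members, or 56.4 CPM (44.9–69.9), of which 28 were Xcr1 UMIs from 2 cells. The 27 with suffix 2 had 0 among 237663 UMIs, with an interval that reaches 15.5 CPM. The summed level of the 6 cholangiocyte markers also differed, at 600.2 and 1658 CPM, and its part in this was not tested.

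The members with a leading lineage on both sides of a textbook pair were Xcl1 with Xcr1, Ccl5 with Ccr1, Cxcl10 with Cxcr3, Cxcl12 with Cxcr4, and Cxcl13 with Cxcr5. Of 35 listed pairs 34 were in the features (Cxcl11 was not analysed here), 16 had both partners described, and 5 had both leading. With cells that carried markers of another lineage left out, each of the 5 pairs lost the call of at least 1 partner (Xcr1, Ccr1, Cxcl10, Cxcr4, Cxcl13 and Cxcr5), and Cxcl10 and Cxcr4 lost theirs under further alternatives. The receptors among these no longer held enough UMIs for the rule when those cells were left out. In 0 of the 5 pairs did ligand and receptor lead in the same lineage. No interaction was scored.

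Several members lie side by side in the genome. On chromosome 11, Ccl5, Ccl9, Ccl6, Ccl3 and Ccl4 lie between 83525778 and 83664683 (GRCm38), and all 5 were described. Among classes of at least 20 cells, Ccl5 was highest in NK or ILC1-like, Ccl6 in neutrophil-like and Ccl9 in monocyte-like cells. With the small classes included, Ccl9, Ccl3 and Ccl4 in both libraries and Ccl6 with suffix 1 were highest in basophil or mast-like cells.

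Within a class, 143 class and gene pairs of members held at least 20 UMIs in either library. After 3 UMIs were added to both sums, 25 pairs (17.5%) were at least 2-fold higher with suffix 1 and 16 (11.2%) at least 2-fold higher with suffix 2, where the shares over all other genes were 2.48% and 2.95%. The pairs past 2-fold with suffix 1 included Cxcl9, Cxcl10 and Xcl1 in cDC2-like cells, Ccl17 and Ccl22 in cDC1-like cells, and Ccl3, Ccl4 and Cxcl2 in neutrophil-like cells. Those with suffix 2 included Cxcl9 and Cxcl10 in Kupffer-like cells, Cxcl9 in hepatocyte-like cells, Ccl24, Ccl9 and Cxcl16 in monocyte-like cells, and Cxcr6 and Cx3cr1 in naive T-like cells. The shares of other genes past 2-fold also differed by class: with suffix 1 they were 4.3% in cDC2-like, 3.5% in cDC1-like, 2.96% in neutrophil-like and 11.0% in stellate or fibroblast-like cells, and with suffix 2 they were 0.843% in Kupffer-like, 3.07% in hepatocyte-like, 2.5% in monocyte-like, 1.49% in naive T-like and 13.4% in cholangiocyte-like cells.

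Single cells held many of these UMIs. With suffix 1, the highest cell for each gene held 29 of the 30 Cxcl10, 109 of the 129 Cxcl9 and 23 of the 31 Xcl1 UMIs of cDC2-like cells, and 30 of the 31 Ccl22 and 51 of the 52 Ccl17 UMIs of cDC1-like cells. With suffix 2, a Kupffer-like cell of 18368 UMIs held 69 of the 207 Cxcl9 and 34 of the 90 Cxcl10 UMIs of its class. A monocyte-like cell held 44 of the 86 Ccl24 UMIs, and without it that level fell from 197 to 97.9 CPM. When the cell with the most UMIs of the gene was left out of each class and library, 13 pairs were past 2-fold with suffix 1 and 9 with suffix 2, of the 119 that then held enough UMIs. Cxcl9 in hepatocyte-like cells went from 42.7 to 17.6 CPM with suffix 2, and from 12.8 to 9.83 CPM with suffix 1. Ccl24 in stellate or fibroblast-like cells of suffix 1 stood at 139 CPM against 11.5 CPM with suffix 2, but 14 of its 26 UMIs were in 1 cell with 18 markers of mononuclear phagocytes. With 1 library on each side, these differences have no replicate check. With a mitochondrial limit of 10%, 10 of 113 pairs (8.85%) were past 2-fold with suffix 1 and 16 (14.2%) with suffix 2. The shares over other genes were then 2.2% and 3.05%. When the CPM of other lineages was subtracted, 19.6% of member pairs and 21.9% of other pairs were past 2-fold with suffix 2, so the members' share was then no higher. Genotype, library and mitochondrial loss cannot be told apart.

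**Figure D5:**
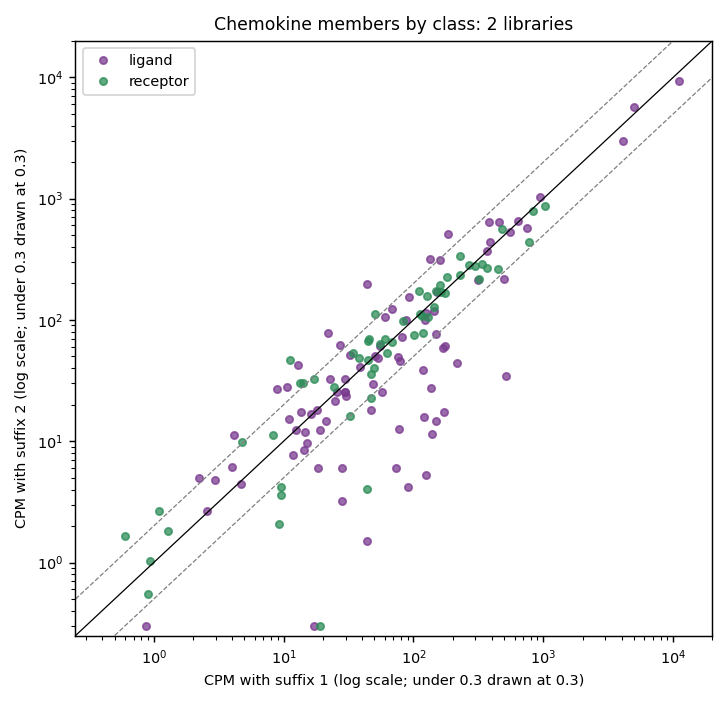
CPM of each of the 143 class and gene pairs with suffix 1 (x axis) and suffix 2 (y axis), both on log scales; ligands in purple, receptors in green, the solid line marks equal levels and the dashed lines 2-fold. Points on either side of the dashed lines include Cxcl9 in cDC2-like cells (suffix 1 higher) and Ccl24 in monocyte-like cells (suffix 2 higher), and 25 and 16 pairs count as past 2-fold once 3 UMIs are added. A single cell held 84.5% of those Cxcl9 UMIs with suffix 1, and another 51.2% of those Ccl24 UMIs with suffix 2.

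The pathway around the chemokines, a list of 33 genes for related ligands, receptors, signalling and adhesion, was read by the same rule. Of 28 that held enough UMIs, 5 had a leading lineage (17.9%, where 21.2% of all other genes did). Pf4, the platelet CXC chemokine that the name rule leaves out, was highest in monocyte-like cells at 144 and 115 CPM. Gpr182, an endothelial scavenger of chemokines, stood at 769 and 554 CPM in endothelial-like cells. Cmklr1, the chemerin receptor, was at 120 and 100.1 CPM in Kupffer-like cells, C5ar1, the anaphylatoxin receptor, at 375 and 263 CPM in neutrophil-like cells, and Adam10, the protease that sheds Cxcl16 and Cx3cl1, at 324 and 390.3 CPM in Kupffer-like cells.

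The remaining detected members held fewer than 30 UMIs in at least 1 library (suffix 1 first). Cxcl2 had 100 and 19 UMIs, of which 63 and 8 were in neutrophil-like cells. Ccr10 had 24 and 34, of which 22 and 26 were in plasma-like cells, and Ccr4 had 38 and 27, of which 14 and 9 were in the T-like class that was neither naive nor effector. Ccl20 had 23 and 0, Ackr1 35 and 15, Ackr2 28 and 37, Cxcl14 38 and 26, Cxcl17 24 and 17, and Ccr3 17 and 22. Ccl19 had 6 and 11, Ccl7 12 and 9, Ccl12 14 and 8, Ccl8 3 and 17, and Ccl1 12 and 1. Those with at most 5 UMIs in all were Ccl26, Ccl28, Ccr8, Cxcl3, Ccl21a and Cxcr1. Ccl11, Cxcl5, Cxcl15, Ccl27b and Ccr1l1 had none, nor did Ccl21b, Ccl21c and the second features named Ccl19 and Ccl21a. Ccl19, Ccl21 and Ccl27a have further annotated copies on unplaced scaffolds, so reads could have been left unassigned and their levels are uncertain.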

How the data were processed

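The authors deposited 1 joined matrix of UMI counts per gene and barcode, made per the labels with Cell Ranger 7.1.0, bcl2fastq 2.20.0 and STAR 2.7.2a on mm10. Barcodes with at least 500 UMIs, 200 genes and at most 25% mitochondrial UMIs were kept. Scrublet marked 0 cells in either library and so did not work, and doublets were not removed in the values reported. Cells were clustered in 2 rounds (scanpy 1.11.5, 2000 variable genes without the members, 30 components, 15 neighbours, Leiden resolution 1, then 2 for the cells that were not hepatocyte-like); the second round and the naming thresholds were set after the clusters were seen. Classes were named from marker lists. UMIs were summed per class and suffix and scaled to CPM; 95% intervals are exact Poisson for levels and Clopper-Pearson for shares. A floor of 3 UMIs was set for counts of 0. Depth was 41533901 and 25898466 UMIs over the kept cells. The calling rules were tested on simulated class sums, drawn as Poisson counts from 1 common profile with 200 genes raised 4-fold. For the leading lineage, 104 of 128 raised genes were recovered and 0 of 2452 unchanged genes were called. Between the libraries, 2373 of 2521 raised pairs were recovered and 1071 of 87751 unchanged pairs were called. Spread between cells was not simulated, so UMIs held by single cells or doublets were outside this check.

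Members with at least 30 UMIs in each library were described, and the others are given by their UMIs. Splits by Cd8a, Cd8b1 or Cd4 and by hepatocyte depth were chosen after the data were seen. Members and lists were chosen with earlier results of these data known. Positions came from GENCODE M21 by Ensembl identifier, found for all 67 members. Protein sequences were not used here, and 1 described receptor is not reported here by name, though it is in the counts. Samples carry the labels of 1 knockout and 1 wild type liver, no column of sample values was left out, and no comparison of genotypes was made. Alternatives were the barcode filters, resolution, classes named per cell, member genes among the variable genes, cells with markers of another lineage left out, means over cells, the highest cell left out, subtraction of other lineages and a ratio of 3.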

Additional observations from a re-analysis of the deposited data

Results flagged for a closer look

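Droplets over the mitochondrial limit entered no comparison, and they held chemokine UMIs above the level that a count of 3 UMIs gives (0.162 and 0.114 CPM). Ligand UMIs came to 138 CPM (133 to 143) in the 5675 such droplets of suffix 1 and 107 CPM (103 to 111) in the 8886 of suffix 2. Receptor UMIs came to 39.2 CPM (36.4 to 42.2) and 20.2 CPM (18.6 to 22.0). Ccl5 held the most ligand UMIs in both libraries, 596 and 777.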

How the results depend on the processing

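The 7 ligands with a leading lineage became 5 to 8 and the 9 receptors 8 to 10 under every alternative but one. When cells with at least 2 markers of another lineage were left out, 12100 of 17705 cells remained, and 4 ligands and 4 receptors were called, of 6 and 4 that still held enough UMIs. Of the 16 calls 7 were kept, those of Ccl17, Cxcl10, Cxcl13, Ccr1, Cx3cr1, Cxcr2, Cxcr4, Cxcr5 and Xcr1 were lost, and Ccr2 was gained. Pairs past 2-fold then numbered 3 with suffix 1 and 4 with suffix 2, of 35. With a mitochondrial limit of 10%, 10 pairs were past 2-fold with suffix 1; with no filter other than 200 genes, 10 were with suffix 2; with the highest cell left out, 13 and 9; with CPM of the other lineages subtracted, 28 with suffix 2 (19.6% of pairs, against 21.9% of other genes' pairs, and 14.7% against 11.7% with suffix 1); and with a ratio of 3, 3 with suffix 2. Ccl17 lost its call under 6 of the 14 alternatives and Cxcl10 under 5. For the 16 leading members, 398 log2 ratios to the highest class of another lineage could be recomputed, and 0 of these changed sign; with no filter other than 200 genes, at resolution 0.5 and with cells of mixed markers left out, some ratios of Ccl17, Cxcl10, Cx3cr1, Ccr9 and Xcr1 could not be computed, among them ratios of calls that were lost; 121 moved beyond their counting interval and 5 fell under 1, all with suffix 1 (Xcl1 at a limit of 50% and at resolution 2, Cxcl10 with means over cells and with the highest cell left out, and Ccl17 with the highest cell left out). Leaving out hepatocyte-like droplets under 5000 UMIs was chosen after the data were seen and kept all 16 calls. No paired analysis was possible because there is 1 sample per genotype and neither library is tied to one. Fewer than 20 cells in migratory DC-like, macrophage-like and basophil or mast-like classes limit what can be said of them.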
